A study of Mus musculus with 6 samples.

Results

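The 12 h response to imidazole was compared between cells whose Src kinase imidazole can restore, Src R388A/Y527F, and cells whose Src it cannot restore, Src D386N/Y527F. The measure was a difference of log2 changes, the 12 h minus 0 h change in R388A/Y527F cells minus the same change in D386N/Y527F cells. It was taken in 2 summaries of the same arrays, the GCOS signal (the scanner software's value) and a second summary deposited beside it. Of 18193 genes on the array, 8753 had a GCOS signal of 100 or more on at least 1 of the 4 arrays. Of these, 6044 had a difference of the same sign in both summaries and are described here. The difference was positive in 3586 of them (41% of the 8753) and negative in 2458 (28.1%), so 59.3% were positive, and 51.3% after quantile normalization. Higher and lower, said of a difference below, mean a more positive or more negative 12 h change in R388A/Y527F cells than in D386N/Y527F cells, and not a level.

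Both lines were SYF cells, mouse embryonic fibroblasts without the kinases Src, Yes and Fyn, stably transfected with Src under hygromycin B selection. Both Src forms carried Y527F, which removes the inhibitory tail tyrosine. R388A exchanges a catalytic arginine and D386N the catalytic aspartate. Cells of each line were starved of serum overnight and were given imidazole at 5 mM, with RNA taken after 1 h and 12 h, or were taken untreated at 0 h. Each of the 6 groups was 1 array, so no value below has a replicate, an error or a test, and no 12 h array without imidazole was measured. Whether each line was 1 clone is not given in the sources used here. Within a line, time in starvation and imidazole cannot be told apart, and a difference between lines cannot be told apart from a difference between 2 separately derived cell populations.

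Src is a tyrosine kinase at the inner face of the plasma membrane that relays signals from integrins and growth factor receptors to adhesion proteins and to the ERK, PI3K and STAT pathways. Several results concern ATF4, a transcription factor whose translation rises when eIF2 alpha is phosphorylated, as in amino acid shortage or endoplasmic reticulum stress. ATF4 raises genes for amino acid synthesis, amino acid transport, one-carbon metabolism and tRNA charging, together with the regulators Ddit3, Trib3 and Chac1.

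Several listed ATF4 and unfolded protein response genes hold a C/EBP-ATF type motif near the start and had positive differences in both summaries. The promoters of the 3 with the largest differences among them are shown. They come from RefSeq on GRCm38.p6, run 5′ to 3′ on the gene's strand from 250 bases before the start to 50 after it, and have the motif match in capitals. Asns lies at chr6:7693160-7693459 on the minus strand, Chac1 at chr2:119350992-119351291 on the plus strand and Trib3 at chr2:152344011-152344310 on the minus strand.
Asns: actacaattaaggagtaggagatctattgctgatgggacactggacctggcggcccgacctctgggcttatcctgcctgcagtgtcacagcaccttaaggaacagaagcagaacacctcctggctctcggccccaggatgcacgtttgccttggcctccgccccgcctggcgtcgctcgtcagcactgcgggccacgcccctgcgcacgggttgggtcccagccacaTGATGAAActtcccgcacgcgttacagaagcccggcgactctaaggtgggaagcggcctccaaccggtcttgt
Chac1: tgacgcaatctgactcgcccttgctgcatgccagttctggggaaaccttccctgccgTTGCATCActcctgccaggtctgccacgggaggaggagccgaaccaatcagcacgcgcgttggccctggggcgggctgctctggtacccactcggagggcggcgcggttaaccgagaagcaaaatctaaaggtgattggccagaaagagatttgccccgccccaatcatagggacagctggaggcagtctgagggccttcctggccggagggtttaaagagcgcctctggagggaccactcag
Trib3: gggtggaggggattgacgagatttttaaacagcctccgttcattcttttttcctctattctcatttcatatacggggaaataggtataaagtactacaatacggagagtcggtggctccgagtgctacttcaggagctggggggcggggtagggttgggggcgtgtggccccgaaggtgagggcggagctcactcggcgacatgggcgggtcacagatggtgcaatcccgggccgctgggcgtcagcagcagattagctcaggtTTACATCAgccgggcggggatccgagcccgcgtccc
The motif searched was TGATGNAA, read on both strands (TTNCATCA on the other). It began 23 bases before the start in Asns and 193 bases before it in Chac1, and lay just after the start in Trib3. Of 32851 mouse promoters of this length, 4.0% held a match, and of 7203 genes at a signal of 100 with a promoter entry, 2.4% did. A match was held by 3 of 22 genes called higher (13.6%) and 4 of 49 called lower (8.2%), so it was not confined to positive differences. In the ATF4 list 7 of 35 genes with a promoter entry held one (20%). Those not shown were Aars, with a difference of 0.40 (GCOS) and 0.34 (second summary), and Gars, with 0.33 and 0.24. Nupr1, with 0.11 and 0.10, and Herpud1, with 0.02 and 0.22, were also not shown. A match is a string of letters and does not show binding.

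Over the 8753 genes the GCOS difference had a median of 0.00, and its central 95% ran from -0.75 to 0.55 on the log2 scale. In the second summary the median was 0.06 and the range -0.44 to 0.48. A gene was called when its difference was at least 1.5-fold (0.585 on the log2 scale) in the same direction in both summaries. By that rule 27 genes had a higher difference (0.308% of the 8753) and 59 a lower one (0.674%). At 2-fold the counts were 4 (0.0457%) and 4 (0.0457%). The 2 summaries read the same scans, so their agreement does not stand in for a replicate. In the plot of the 2 summaries against each other, most genes lie within the central cloud and the called genes at its corners.

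**Figure D1:**
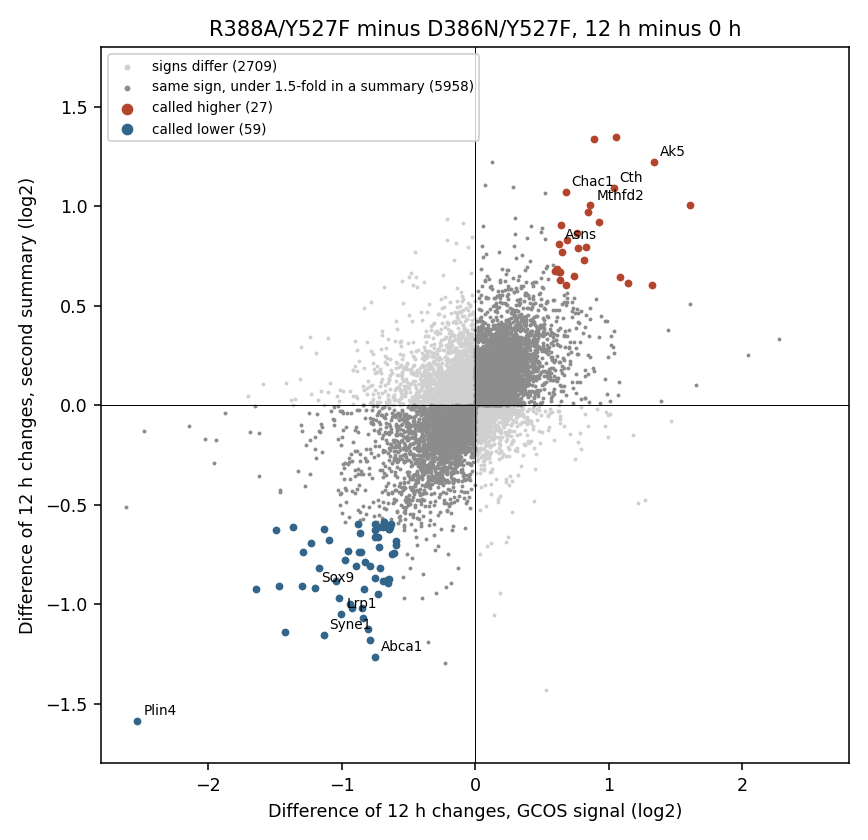
Difference of 12 h changes, R388A/Y527F minus D386N/Y527F, in the GCOS signal (horizontal axis, log2) against the second summary (vertical axis, log2), 1 point per gene at a signal of 100. The 27 genes called higher sit at the upper right and the 59 called lower at the lower left, with Plin4 farthest out among the called genes, and 2 genes lie beyond the axes.

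In R388A/Y527F cells 36 genes passed 1.5-fold upward from 0 h to 12 h (0.411%) and 21 downward (0.24%), against 84 upward (0.96%) and 36 downward (0.411%) in D386N/Y527F cells. Among the 27 genes called higher, 3 rose by 1.5-fold in R388A/Y527F, while 12 fell by as much in D386N/Y527F, and the other 12 passed it in neither line. Among the 59 called lower, 8 fell in R388A/Y527F, while 19 rose in D386N/Y527F, and 32 passed it in neither. The 2 lines' changes had opposite signs in both summaries in 16 of the 27 and in 38 of the 59. Calling genes by a large difference favours opposite signs, and the share over all genes was not counted.

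Most ATF4 and unfolded protein response genes had a more positive 12 h change in R388A/Y527F cells than in the D386N/Y527F line. Of 44 listed genes 40 had a signal of 100, 34 had a positive difference in both summaries and 0 a negative one, a share of 85.0% beside 41% of all genes. Among the 34, Sel1l, Cebpg, Shmt2 and Xbp1 each had another probe set at the minimum with a negative GCOS difference. The list's median difference was 0.26 in the GCOS signal and 0.24 in the second summary, beside 0.00 and 0.06 over all genes. The median 12 h change was 0.00 and -0.03 in R388A/Y527F (GCOS and second summary), and -0.26 and -0.30 in D386N/Y527F. In D386N/Y527F 33 of the 40 had a negative change in both summaries, beside 44.8% of all genes, and 6 of them fell by 1.5-fold. The list was chosen with earlier results of these data known, so its direction is a description.

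Signals below are GCOS signals, in the order 0, 1 and 12 h, and paired differences give the GCOS signal and then the second summary. The genes called were Mthfd2, Chac1, Asns and Slc7a5, and enzymes of one-carbon metabolism and amino acid synthesis are given first. Mthfd2, the mitochondrial methylene-tetrahydrofolate dehydrogenase, had signals of 430.4, 419.9 and 419.1 at 0, 1 and 12 h in R388A/Y527F cells, against 497.4, 439.1 and 266.4 in D386N/Y527F cells. The fall was in D386N/Y527F at 12 h, and the difference was 0.86 (GCOS) and 1.0 (second summary). Asns, asparagine synthetase, had 951.7, 1017.5 and 928.3 in R388A/Y527F, against 795.3, 780.9 and 501.6 in D386N/Y527F, a difference of 0.63 and 0.81. Its pattern was that of Mthfd2, near level in R388A/Y527F with a single low array, D386N/Y527F at 12 h. Cth, the cystathionine lyase that makes cysteine and is not in the list, had 165.1, 135.0 and 147.5 at 0, 1 and 12 h in R388A/Y527F, against 171.6, 123.6 and 74.7 in D386N/Y527F. Its difference was 1.04 and 1.1, so it stood at 2-fold in both summaries. Psph, the last enzyme of serine synthesis, had a lower signal at 12 h than at 0 h in both lines. It had 537.8, 461.7 and 399.9 in R388A/Y527F, against 904.4, 778.9 and 470.4 in D386N/Y527F. Its difference was 0.52 and 0.43.

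Genes of amino acid transport also had positive differences. Slc7a5, the light chain of the LAT1 transporter, had 395.2, 425.4 and 340.8 at 0, 1 and 12 h in R388A/Y527F, against 622.2, 599.7 and 335.5 in D386N/Y527F. It was called higher, with a difference of 0.68 and 0.61, although the 12 h signals of the lines were nearly equal and the 0 h signals were not. Its heavy chain gene Slc3a2 had a difference of 0.47 and 0.37, below the threshold for a call.

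The regulators Chac1, Atf4 and Ddit3 had their highest signals at 12 h in R388A/Y527F cells. Chac1, which degrades glutathione, had 181.9, 211.7 and 233.7 at 0, 1 and 12 h in R388A/Y527F, against 128.8, 129.8 and 103.5 in D386N/Y527F. It was called higher, at 0.68 and 1.07, with the lines moving in opposite directions. Atf4 itself had 1601.3, 1861.4 and 2016.9 in R388A/Y527F, against 1261.2, 1328.4 and 1227.2 in D386N/Y527F, a difference of 0.37 and 0.40 that was not called. Ddit3, the factor CHOP, had 233.4, 285.3 and 396.5 in R388A/Y527F, against 231.9, 277.4 and 271.2 in D386N/Y527F. It rose by 1.5-fold in R388A/Y527F in both summaries (0.76 and 0.77), and its difference was 0.54 and 0.52. Trib3, a pseudokinase that restrains ATF4, had a GCOS difference of 1.61 and a second-summary difference of 0.51.

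Grouped by role after the values were seen, the list split by size. Chac1, Trib3, Ddit4, Eif4ebp1, Sesn2 and Ppp1r15a were in none of these groups. The median difference was 0.38 (GCOS) and 0.43 (second summary) over 7 genes of serine, asparagine and one-carbon synthesis, and 0.37 and 0.40 over 7 transcription factors. Over 3 amino acid transport genes it was 0.47 and 0.37, with 3 of 3 positive in both summaries. It was 0.33 and 0.28 over 4 tRNA synthetases, of which 3 were positive in both summaries. Over 13 chaperones and other genes of folding and degradation in the endoplasmic reticulum it was 0.08 and 0.15, and 9 of the 13 were positive in both. Hspa5, the chaperone BiP, is among the latter genes. The plot of the 34 list genes positive in both summaries shows the lines apart mainly in the upper rows.

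**Figure D2:**
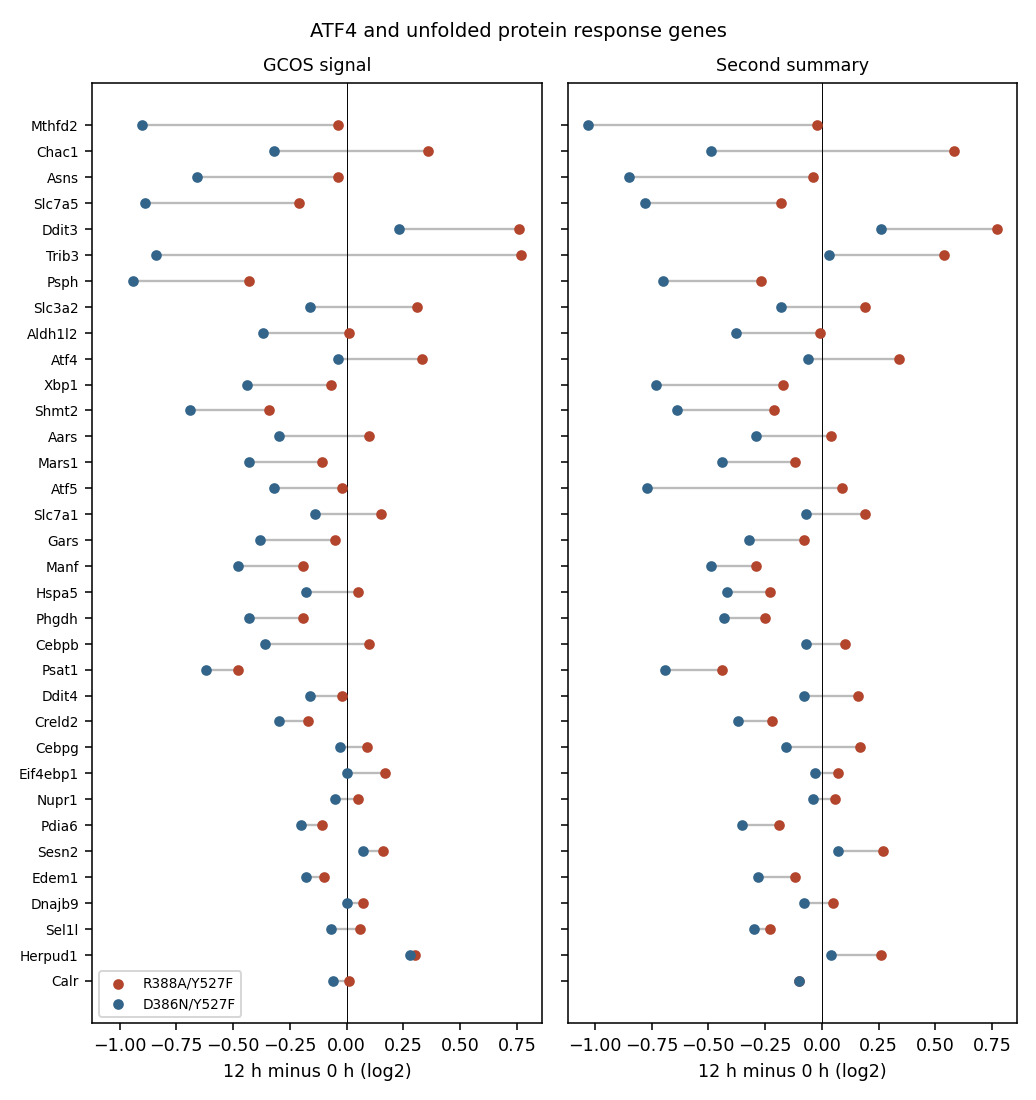
The 12 h minus 0 h change (log2) of the 34 ATF4 and unfolded protein response genes that had the same sign in both summaries, in R388A/Y527F (red) and D386N/Y527F (blue), with the GCOS signal at left and the second summary at right. Red points lie right of blue in each row but Calr in the second summary, where they coincide at the drawn scale, and most blue points lie left of 0.

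The other genes called higher came from different lists or from none. Ak5, an adenylate kinase, had 60, 74.6 and 111.3 at 0, 1 and 12 h in R388A/Y527F, against 46.7, 35.3 and 34.2 in D386N/Y527F, which led the ranking on the smaller of the 2 differences (1.34 and 1.22). Its GCOS difference was 0.89 with the floor at the 60th percentile and 0.39 with the mean of all probe sets. Prickle2, of planar cell polarity, rose in R388A/Y527F, with 59.2, 73.0 and 110.7 there against 55.1, 53.9 and 55.7 in D386N/Y527F (0.89 and 1.34). For Ak5 and Prickle2 the R388A/Y527F array at 12 h was the highest of the 6. No other 0 h or 12 h array reached the minimum signal required of a gene for them. The way genes were chosen thus favours this pattern. H1f2, a linker histone, fell in D386N/Y527F, with 1294.5, 1555.6 and 1024.2 in R388A/Y527F, against 1287.9, 1165.6 and 634.2 in D386N/Y527F (0.68 and 0.83). Steap1, of a metalloreductase family, had 162.5, 148.0 and 193.6 in R388A/Y527F, against 130.1, 115.9 and 86.5 in D386N/Y527F (0.84 and 0.97). For H1f2 and Steap1 the D386N/Y527F array at 12 h was the lowest. Grem1, a secreted BMP antagonist, had 262.6, 361.1 and 380.2 in R388A/Y527F, against 222.7, 259.3 and 205.5 in D386N/Y527F (0.65 and 0.77).

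Several of them rested on levels that already differed between the lines. Crabp1, a retinoic acid binding protein, had 811.3, 884.4 and 1058.0 at 0, 1 and 12 h in R388A/Y527F, against 26.1, 24.2 and 19.3 in D386N/Y527F, the last below the floor of 20.4 under which signals were set equal. Its GCOS difference was 0.74, and 0.38 with the floor at the 60th percentile. Serpinb1a, a protease inhibitor, had 7.4, 33.4 and 30.8 in R388A/Y527F, the first below the floor, and 131.6, 81.5 and 65.2 in D386N/Y527F. Its difference was 1.61 and 1.01 and dropped to 0.21 and 0.17 with the 1 h arrays as baseline. For this gene the D386N/Y527F line was the brighter at all times. Prkd1, protein kinase D1, had 116.4, 113.8 and 93.8 in R388A/Y527F, against 60.3, 43.6 and 25.6 in D386N/Y527F (0.92 in both summaries), and its GCOS sign turned to -0.18 with the floor at the 60th percentile. Malat1, a nuclear long noncoding RNA, had 202.9, 582.4 and 381.5 in R388A/Y527F, against 541.3, 539.1 and 599.4 in D386N/Y527F. Its difference of 0.76 and 0.87 turned to -0.76 and -0.72 with the 1 h baseline. The R388A/Y527F array at 0 h was the lowest of the 6 for Malat1. Usp2, a deubiquitinase, and Mreg, of melanosome transport, also turned in the GCOS signal, to -0.67 and -0.17. Ica1 (0.77 and 0.79, but 0.18 and 0.2 with the 1 h baseline) and Fam185a (0.65 and 0.91, but 0.4 and -0.04) complete the genes named as higher.

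Among the genes called lower, Syne1, the nuclear envelope linker nesprin-1, had 204.2, 204.0 and 135.2 at 0, 1 and 12 h in R388A/Y527F, against 171.7, 173.0 and 249.6 in D386N/Y527F, a difference of -1.13 and -1.16. The changes of the lines had opposite signs. With the mean of all probe sets, the others of which were below 100 on these arrays, the GCOS difference was -0.07. Lrp1, an endocytic receptor, had 463.4, 422.5 and 353.9 in R388A/Y527F, against 387.5, 352.3 and 595.2 in D386N/Y527F (-1.01 and -1.05). Zfhx3, a zinc finger homeobox factor, had 280.2, 292.6 and 207.4 in R388A/Y527F, against 159.8, 159.7 and 239.6 in D386N/Y527F (-1.02 and -0.97). For Lrp1 the D386N/Y527F array at 12 h was the highest of the 6, and for Zfhx3 it stood below the R388A/Y527F arrays at 0 and 1 h. Kmt2d, a histone H3 lysine methyltransferase, had 202.9, 202.0 and 160.9 in R388A/Y527F, against 177.2, 185.9 and 266.6 in D386N/Y527F (-0.92 and -1.02). Ubr4, a ubiquitin ligase, had 737.9, 588.4 and 534.9 in R388A/Y527F, against 407.7, 520.7 and 549.5 in D386N/Y527F (-0.89 and -0.81). With the mean of all probe sets the GCOS difference was -0.65 for Lrp1 and -0.25 for Kmt2d. All 5 had higher signals at 12 h than at 0 h in D386N/Y527F and lower ones in R388A/Y527F. Kmt2a, Ahnak, Ahnak2, Pkd1, Notch1 and Map1a, named after their values were seen, were called lower too. With the 1 h baseline Pkd1 was at 0.13 and -0.03 and Map1a at -0.73 and 0.12, while Kmt2a, Ahnak, Ahnak2 and Notch1 stayed negative in both summaries.

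The called-lower genes spanned more of the genome than the rest. Their median span from gene start to end was 58.5 kb, against 27.3 kb for genes called higher and 24.2 kb for all genes at a signal of 100. When the 8740 genes with a span were divided into 4 bins of equal size, 1.37% of the bin above 54.1 kb were called lower, and 0.41% to 0.46% of each of the other bins. Genes called higher were also most frequent in that bin, at 0.41% against 0.23% to 0.32% in the others. The median GCOS difference was -0.06 in the longest bin and 0.05 in the shortest, and 0.01 and 0.07 in the second summary. As a sign of RNA integrity, the control ratio of 3' over 5' signal for Gapdh was 0.80, 0.82 and 0.76 in R388A/Y527F, against 0.82, 0.78 and 0.79 in D386N/Y527F. For actin it ranged from 1.11 to 1.18. Their part in the result was not tested.

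Metabolic and regulatory genes were also among those called lower. Plin4, a lipid droplet coat protein, had 41.1, 7.7 and 37.2 at 0, 1 and 12 h in R388A/Y527F, against 20.8, 59.1 and 108.6 in D386N/Y527F, a difference of -2.53 and -1.59 that led the ranking. The D386N/Y527F signal at 0 h was close to the floor, and with the floor at the 60th percentile the GCOS difference was -0.98. With the 1 h baseline it was -0.01 in the GCOS signal and -1.13 in the second summary. Fbxo32, the ubiquitin ligase atrogin-1 and a FOXO target, had 81.8, 82.6 and 53.2 in R388A/Y527F, against 69.7, 94.1 and 125.5 in D386N/Y527F (-1.47 and -0.91). The D386N/Y527F array at 12 h was the highest of the 6 for Plin4 and for Fbxo32. Sox9, a transcription factor of the chondrocyte lineage, fell by 0.93 and 0.94 in R388A/Y527F, with 396.6, 343.5 and 208.1 there against 95.0, 133.0 and 114.2 in D386N/Y527F, and had a difference of -1.20 and -0.92 (GCOS -0.53 with the mean of all probe sets). Abca1, the cholesterol exporter and an LXR target, had 137.4, 156.5 and 95.0 in R388A/Y527F, against 55.1, 40 and 64.2 in D386N/Y527F (-0.75 and -1.27). Both Sox9 and Abca1 were brighter in R388A/Y527F than in D386N/Y527F at each time. Manba, a lysosomal mannosidase, rose in D386N/Y527F, with 86.1, 76.8 and 89.8 in R388A/Y527F, against 86.6, 97.5 and 172.6 in D386N/Y527F (-0.93 and -1.0). Mest, an imprinted gene, had 90.5, 73.8 and 92.2 in R388A/Y527F, against 85.9, 110.9 and 155.6 in D386N/Y527F (-0.83 and -0.92). For Manba and Mest the D386N/Y527F array at 12 h was also the highest of the 6. For Manba, Mest, Plin4 and Fbxo32 no other 0 h or 12 h array reached the minimum signal required of a gene. That filter and the ranking on the difference together favour such a pattern, so it is not a separate observation. Srr, serine racemase, had a difference of -1.64 and -0.92, and a GCOS value of 1.03 with the 1 h baseline. Igdcc4 (-1.42 and -1.14), Stard9 (-1.30 and -0.91), Edil3 (-0.85 and -1.02), Gas7 (-0.84 and -1.07, GCOS 0.87 with the 1 h baseline) and Parp14 (-1.17 and -0.82) complete the genes named as lower. Of these, Igdcc4 was at -0.66, Edil3 at -0.25 and Gas7 at -0.51 in the GCOS signal with the higher floor, and Edil3 at -0.09 with the mean of all probe sets.

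**Figure D3:**
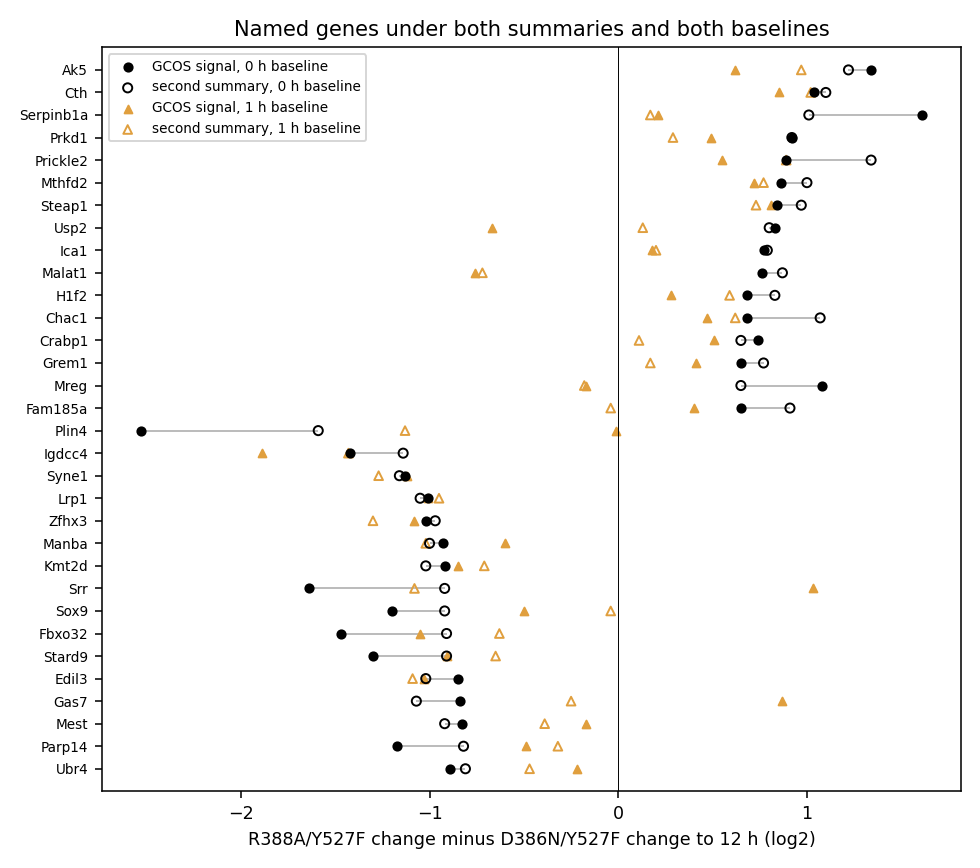
Difference of 12 h changes (log2, R388A/Y527F minus D386N/Y527F) of the 32 named genes, with the 0 h array of each line as baseline (black) and with the 1 h array instead (orange), for the GCOS signal (filled) and the second summary (open). Malat1, Mreg, Usp2, Srr and Gas7 have an orange GCOS triangle on the other side of 0 from the black points.

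Most matrix genes had a more negative or smaller 12 h change in R388A/Y527F cells than in the D386N/Y527F line. Of 30 at a signal of 100, 20 had a negative difference in both summaries and 4 a positive one, beside 28.1% and 41% of all genes. The medians were -0.25 and -0.24, and -0.08 in the GCOS signal with the 1 h baseline. The median change was 0.05 and -0.01 in R388A/Y527F, against 0.26 and 0.21 in D386N/Y527F, where 4 genes rose by 1.5-fold. Fn1, fibronectin, had 3374.6, 3833.9 and 4267.4 at 0, 1 and 12 h in R388A/Y527F, against 1983.4, 2274.7 and 3107.1 in D386N/Y527F, higher at 12 h in both and by more in D386N/Y527F (-0.31 and -0.44). Dcn, the proteoglycan decorin, had 2307.9, 2750.3 and 2710.7 in R388A/Y527F, against 572.3, 535.3 and 899.4 in D386N/Y527F (-0.42 and -0.53). Both genes had higher signals at 12 h than at 0 h in each line. Vcan, versican, was called lower, with 580.9, 634.7 and 444.3 at 0, 1 and 12 h in R388A/Y527F, against 138.1, 157.9 and 167.2 in D386N/Y527F (-0.66 and -0.61). Lama4, a laminin chain, was the other gene called, with all R388A/Y527F signals below the floor and 53.1, 16.1 and 124.2 in D386N/Y527F. The basement membrane genes Lamc1 (-0.59 and -0.53) and Nid1 (-0.48 and -0.42) were not called.

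**Figure D4:**
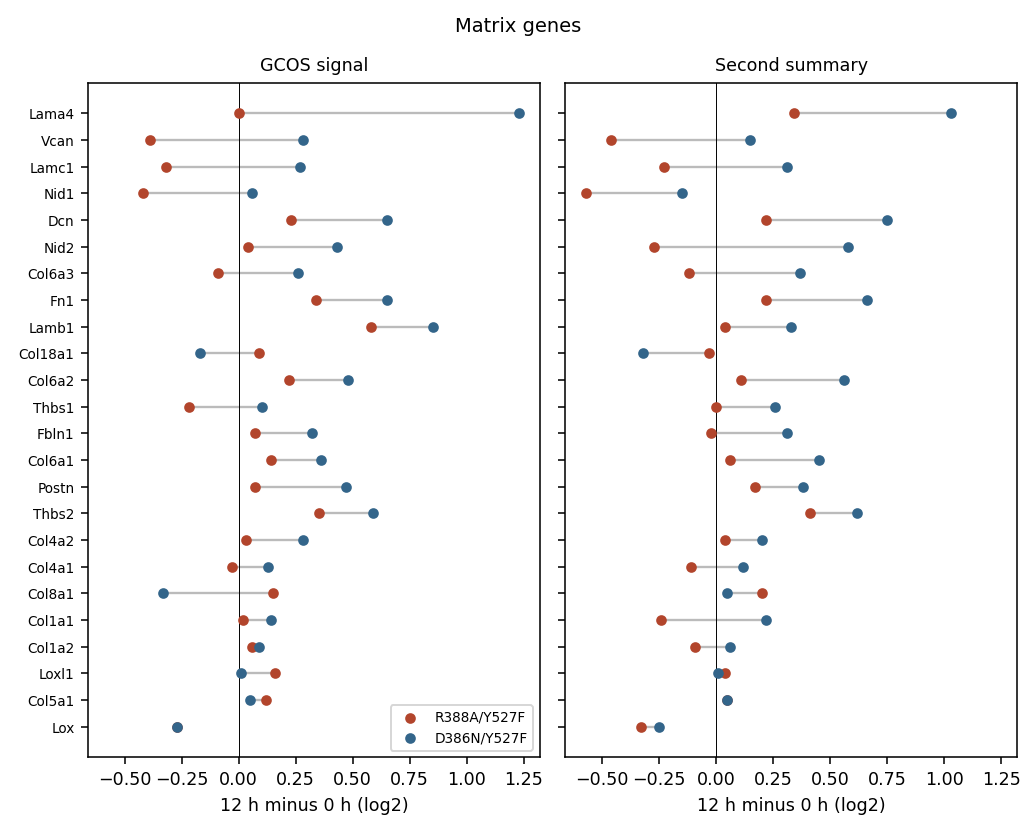
The 12 h minus 0 h change (log2) of the matrix genes with the same sign in both summaries, R388A/Y527F in red and D386N/Y527F in blue, with the GCOS signal at left and the second summary at right. Blue points lie right of red in 20 rows and left in 4, though both coincide as drawn for Lox in the GCOS signal and for Col5a1 in the second summary.

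Over all genes 28.1% were negative and 41% positive in both summaries, and 0.674% and 0.308% were called, which the following counts stand beside. Of 19 growth factor receptor genes 14 were negative and 2 positive, with medians of -0.21 and -0.14 (GCOS -0.09 with the 1 h baseline), and 0 were called. Fgfr1 had 1107.4, 702.3 and 1035.7 at 0, 1 and 12 h in R388A/Y527F, against 445.5, 529.0 and 552.0 in D386N/Y527F (-0.41 and -0.59), and Egfr had a difference of -0.38 and -0.41. With the 1 h baseline the Fgfr1 difference turned positive in both summaries (0.5 and 0.44), while that of Egfr stayed negative (-0.4 and -0.09). Of 28 Src substrate and adhesion genes 15 were negative and 4 positive, with medians of -0.09 and -0.03 (GCOS 0.01 with the 1 h baseline). Sh3pxd2a, the podosome scaffold Tks5 and a Src substrate, had the leading difference there, -0.47 and -0.55. The ERK feedback genes, which the pathway downstream of Src induces, were split, with 5 positive, 7 negative and 0 called of 18. The immediate early genes were split as well, with 10 positive, 7 negative and 0 called of 30. Jun had 1527.7, 1533.6 and 1009.4 at 0, 1 and 12 h in R388A/Y527F, against 293.9, 381.6 and 394.8 in D386N/Y527F (-1.02 and -0.43).

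The counts for lists of growth and division stand beside 41% positive and 28.1% negative of all genes. Of 32 Myc and ribosome biogenesis genes 23 were positive in both summaries and 2 negative, with medians of 0.20 and 0.13 (GCOS 0.08 with the 1 h baseline). Odc1, the rate-limiting enzyme of polyamine synthesis, had 894.4, 985.8 and 961.9 at 0, 1 and 12 h in R388A/Y527F, against 872.2, 841.0 and 695.7 in D386N/Y527F (0.43 and 0.51). Of 33 genes of the G1 to S transition and replication 23 were positive and 1 negative (0.19 and 0.08, with 0.06 over all genes in the second summary). The GCOS median of this list was 0.07 with the 1 h baseline and 0.07 after quantile normalization. Tk1, thymidine kinase, ranked highest (0.49 and 0.36). Of 36 G2 and mitosis genes 21 were positive and 6 negative (0.13 and 0.11, GCOS -0.01 with the 1 h baseline), and 31 of the 36 had a negative 12 h change in both summaries in each line. None of these 3 lists held a called gene. Heat shock genes were positive in 14 of 19 and negative in 1 (0.13 and 0.14, GCOS -0.02 with the 1 h baseline).

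Sterol synthesis genes, the targets of SREBP2, had positive changes in both lines, more so in R388A/Y527F. The median change was 0.44 and 0.42 in R388A/Y527F, against 0.26 and 0.29 in D386N/Y527F, and the difference was positive in 18 of 24 genes and negative in 5 (0.17 and 0.20), beside 41% and 28.1% of all genes. Hmgcs1, HMG-CoA synthase, had 2875.8, 3808.3 and 4449.4 at 0, 1 and 12 h in R388A/Y527F, against 4184.9, 4107.5 and 4662.8 in D386N/Y527F. The 0 h signal in R388A/Y527F was the lowest of the 6, and the lines were close at 12 h. Lysosomal genes also had positive changes in both lines, with medians of 0.38 and 0.37 in R388A/Y527F, against 0.35 and 0.39 in D386N/Y527F, and a difference near 0 (-0.03 and -0.09). Grn, progranulin, had 913.4, 894.3 and 1314.1 at 0, 1 and 12 h in R388A/Y527F, against 978.1, 956.7 and 1802.7 in D386N/Y527F (-0.36 and -0.39). The 2 other Grn probe sets at the minimum went the other way, with GCOS differences of 0.11 and 0.16. The plot of list medians places these lists between the ATF4 list at one end and the matrix list at the other.

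**Figure D5:**
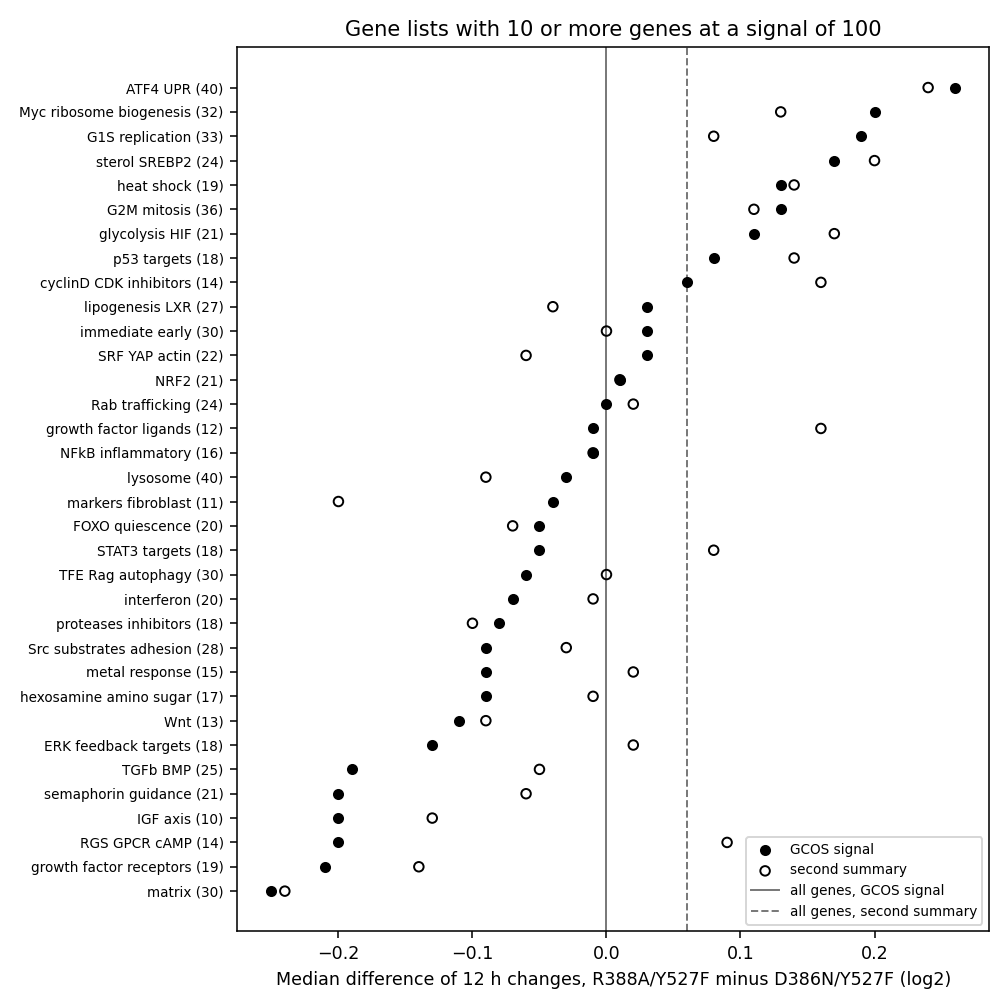
Median difference of 12 h changes (log2, R388A/Y527F minus D386N/Y527F) for the 34 gene lists with at least 10 genes at a signal of 100, the gene number in parentheses, with GCOS signal as filled and second summary as open circles. Vertical lines mark the medians of all genes, 0.00 and 0.06, and the ATF4 list lies farthest right and the matrix list farthest left.

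Among the remaining lists, Irf9 and Ifit1 were called lower in the interferon list, and the IGF list held no called gene. The counts stand beside 41% positive and 28.1% negative of all genes, and 0.674% called lower. Of 20 interferon genes 7 were positive and 8 negative, with Irf9, a factor of interferon signalling, at -0.62 and -0.75, and Ifit1, an interferon-induced protein, at -0.75 and -0.60. Plxna2, a semaphorin receptor, was called lower at -0.69 and -0.61 in a list with 12 of 21 negative and 4 positive. The IGF genes were negative in 7 of 10 and positive in 1, with Igfbp6, which binds IGF-II, at -0.30 and -0.36. The list medians were -0.20 and -0.06 for the semaphorin genes and -0.20 and -0.13 for the IGF genes. With the 1 h baseline the GCOS median of each of these lists was -0.04.

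The cell identity and the targeted kinases were checked on the same arrays. Of 12 fibroblast markers 11 had a signal of 100, and the signals of all 12 summed to 34709.8, 39720.9 and 39421.1 at 0, 1 and 12 h in R388A/Y527F, against 32501.0, 32668.8 and 36128.3 in D386N/Y527F. None of the endothelial, muscle or adipocyte markers reached 100 on these arrays, 1 epithelial marker (Krt8) and 1 haematopoietic marker (Csf1r) did, and 2 neural markers (Nefl and Map2) did. Whether fewer cells of a kind or less RNA per cell underlies a lower signal cannot be told apart. Src had 66.9, 19.1 and 42.2 at 0, 1 and 12 h in R388A/Y527F, against 58.4, 72.7 and 67.9 in D386N/Y527F, under the minimum of 100. Yes1 had 209.2, 197.0 and 183.5 in R388A/Y527F, against 219.4, 208.4 and 180.6 in D386N/Y527F (0.09 and 0.21), and Fyn a difference of -0.35 and -0.29. Where these probes lie relative to the deleted parts is not known here, so they check no label.

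The limits of the rule pass through a continuum. Just inside the call threshold were Hivep3 (-0.59 and -0.70), Wdfy3 and Lrba (both -0.68 and -0.59), and just outside it Ankrd1 (0.58 and 0.71), Eid2 (-0.73 and -0.58) and Inpp5f (-0.97 and -0.58). At the signal minimum Ermard and Arhgef3, brightest at 100, were kept, while Cbx8 at 99.9 and Bcorl1 at 99.8 were not. Of the 86 called genes, 31 had other probe sets at the minimum, and in 27 of these each had the same GCOS sign. Ap2b1, Rflnb and Aif1l were called but not named as leading genes because a second probe set went the other way.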

How the data were processed

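Total RNA of 6 samples was hybridised to Affymetrix Murine Genome 430 2.0 arrays. The deposited values are linear intensities from GCOS 1.3, which the submitters' processing notes name. A trimmed mean of 150 on every array shows scaling to 1 level. A second deposited set of intensities, whose method is not given in the sources used here, covers the same arrays. Its columns were matched to groups by their line letters and times.

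Of 45101 probe sets, 64 controls were left out and 34958 had 1 gene symbol. Each gene took 1 probe set by suffix specificity, then by highest mean signal. Signals below the 40th percentile (20.4 in GCOS, 11.3 in the second summary) were set to it before log2 was taken with pandas 2.3.3 in Python 3.11.15. Named genes were the 16 highest and 16 lowest by the smaller of both differences, with other probe sets of the same GCOS sign and clone names left out, up to 4 per list, and Src, Yes1 and Fyn. The members and the 45 lists were chosen with earlier results of these data known. The alternatives were other floors, thresholds, summaries, normalization, probe set averaging and baseline.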

Additional observations from a re-analysis of the deposited data

Results flagged for a closer look

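In 19 of the 32 named genes the lines' single 12 h changes had opposite signs in both summaries. These genes were picked for a large difference of the 2 changes, which itself favours opposite signs. The share over all genes was not counted, so the number describes the selection. No group had a replicate, so the difference between lines was not tested. The GCOS difference (log2, R388A/Y527F minus D386N/Y527F) was positive in 8 of them, Ak5 (1.34), Serpinb1a (1.61), Steap1 (0.84), Chac1 (0.68), Crabp1 (0.74), Grem1 (0.65), Mreg (1.08) and Fam185a (0.65). It was negative in the other 11, Igdcc4 (-1.42), Syne1 (-1.13), Lrp1 (-1.01), Zfhx3 (-1.02), Kmt2d (-0.92), Fbxo32 (-1.47), Stard9 (-1.30), Edil3 (-0.85), Gas7 (-0.84), Parp14 (-1.17) and Ubr4 (-0.89).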

How the results depend on the processing

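The count of members stayed within 1.5 times under 9 alternatives. The share of members with a positive difference, 59.3%, was 51.3% after quantile normalization, which also took the second summary's median over all genes from 0.06 to 0.00, 54% with the 1 h baseline and between 56.8% and 62% otherwise. The call counts moved most. Against 27 genes higher and 59 lower, each summary alone gave 185 and 420 (GCOS signal) or 106 and 101 (second summary). A signal minimum of 50 gave 53 and 99, one of 200 gave 13 and 31, the mean of all probe sets 15 and 27, and a 2-fold threshold 4 and 4. A pseudocount of 16 left 35 lower. The 1 h baseline gave 76 higher. Of the 27 and 59 genes, 6 and 18 were called again with that baseline, which shares the 12 h arrays.

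The ATF4 list median (0.26) stayed between 0.18 and 0.29 under its alternatives. With the 1 h baseline the Myc and ribosome median was 0.08 (0.20 with 0 h), the matrix median -0.08 (-0.25) and the receptor median -0.09 (-0.21). The G1 to S median was 0.07 (0.19), the semaphorin median -0.04 (-0.20) and the IGF median -0.04 (-0.20). The sign turned in the G2 and mitosis list (-0.01), heat shock (-0.02) and Src substrates (0.01) with that baseline, and in the lysosome list (0.01) with the mean of all probe sets. Among named genes the GCOS sign turned with the 1 h baseline for Usp2 (-0.67), Malat1 (-0.76), Mreg (-0.17), Srr (1.03) and Gas7 (0.87), and with a floor at the 60th percentile for Prkd1 (-0.18). Others kept their GCOS sign but shrank with the 1 h baseline, among them Plin4 (-0.01), Mest (-0.17), Ica1 (0.18), Serpinb1a (0.21), Ubr4 (-0.22), H1f2 (0.28), Parp14 (-0.49) and Sox9 (-0.5). In the second summary with that baseline Sox9 was at -0.04, Crabp1 at 0.11 and Grem1 at 0.17, and Fam185a turned to -0.04. The cause was not tested. No paired analysis was possible because each group was 1 array. With that floor 8 other named genes moved by over 1.5 times, Plin4 to -0.98, Igdcc4 -0.66, Edil3 -0.25, Gas7 -0.51, Ak5 0.89, Serpinb1a 1.01, Crabp1 0.38 and Mreg 0.67. With the mean of all probe sets Syne1 was at -0.07, Edil3 -0.09, Kmt2d -0.25, Gas7 -0.36, Ak5 0.39, Srr -0.46, Steap1 0.47, Sox9 -0.53, Igdcc4 -0.58 and Lrp1 -0.65.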
